A study of Mus musculus with 6 samples.

Results

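Mineral forms in bone matrix where phosphate accumulates and pyrophosphate, an inhibitor of mineral growth, is removed. Inside matrix vesicles, the small membrane sacs that osteoblasts shed, Smpd3 and Phospho1 act on membrane lipids to free phosphocholine and then phosphate. On the vesicle surface Alpl, the tissue-nonspecific alkaline phosphatase, hydrolyses pyrophosphate, which Enpp1 makes from ATP and which Ank helps to bring out of the cell. Slc20a1 and Slc20a2 carry phosphate across the cell membrane, while Spp1 (osteopontin) and Mgp (matrix Gla protein) bind mineral and restrain its growth.

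These 9 genes were taken by symbol from a deposited table of 12830 genes of primary mouse bone marrow stromal cells, and all 9 had a row. Smpd3, Phospho1, Alpl, Slc20a1 and Slc20a2 are treated here as the 5 genes that favour mineral, and Enpp1, Ank, Spp1 and Mgp as the 4 that restrain it. Of the 6 RNA-seq libraries, 3 were labelled CKO and are called cKO, and 3 were labelled Rras2FF and are called FF. The series' design text gives mice aged 8 weeks with the genotypes Prx1;Rras2f/f, for cKO, and Rras2f/f, for FF, so both groups carry the floxed Rras2 allele. The Prx1 promoter is active in limb bud mesenchyme, and cells of other origin in a marrow culture need not carry the deletion. All 6 libraries were from cells under osteogenic induction, with 2 days given in their titles.

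The listed genes summed to between 31934714 and 37561452 counts per library. Rras2, which encodes the small GTPase TC21, had 26.7, 29.0 and 26.8 CPM (counts scaled to library size with TMM factors) in cKO replicates 1, 2 and 3, against 49.7, 50.1 and 44.7 CPM in FF replicates 1, 2 and 3. The cKO level was thus 57.0% of the FF level, and transcripts of the gene remained in every cKO library. Nothing in the labels ties a library to its own mouse or culture, and the spread that p-values measure here may be technical. Osteoblast markers were present: Col1a1, the main bone collagen chain, averaged 5427 ± 597 CPM in cKO and 8159 ± 367 CPM in FF (SD, n = 3 each), while Bglap, the late marker osteocalcin, averaged 1.51 ± 0.999 CPM in cKO and 5.53 ± 0.421 CPM in FF (SD, n = 3 each). Macrophage markers were present too, and 8 of them summed to 5819 to 6007 CPM in cKO and 5464 to 5623 CPM in FF. At an edgeR adjusted p below 0.05, which 2.1% of all genes met as higher in cKO, marrow stroma markers rose for 4 of 8. The 8 summed to 5494 to 5865 CPM in cKO and 4177 to 4357 CPM in FF. Most of each sum was Cxcl12, with means of 4838 CPM in cKO and 3483 CPM in FF. The log2 fold changes of the markers not called, Pdgfra, Pdgfrb, Vcam1 and Thy1, ran from -0.047 to 0.11. Plasma and B cell markers rose for 3 of 3 measured, with sums of 289 to 351 CPM in cKO and 177 to 193 CPM in FF. The part of these cell types in the values of the 9 genes was not tested, and in bulk samples fewer cells of a type cannot be told apart from less RNA per cell.

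For reference beside the expression values, the DNA upstream of 4 of the genes is shown, as RefSeq places it on GRCm38.p6 (the mm10 assembly). Each stretch is the 250 bases before an annotated start site, read 5′ to 3′ on the strand of the gene. Phospho1 and Enpp1 are shown because they were called in opposite directions, Alpl because it opposes Enpp1 in pyrophosphate turnover, and Spp1 because it was the most abundant of the 9 per length. The windows are chr11:95824250-95824499 on the plus strand for Phospho1, chr4:137796385-137796634 on the minus strand for Alpl (the more upstream of 2 annotated starts), chr10:24712160-24712409 on the minus strand for Enpp1 and chr5:104434861-104435110 on the plus strand for Spp1 (the more upstream of 2 annotated starts). Capitals mark every match, on either strand, to 1 of 3 motifs: TGTGGT (the RUNX core), TGACGT (part of the cyclic AMP response element) and GGGCGG (the GC box).
Phospho1: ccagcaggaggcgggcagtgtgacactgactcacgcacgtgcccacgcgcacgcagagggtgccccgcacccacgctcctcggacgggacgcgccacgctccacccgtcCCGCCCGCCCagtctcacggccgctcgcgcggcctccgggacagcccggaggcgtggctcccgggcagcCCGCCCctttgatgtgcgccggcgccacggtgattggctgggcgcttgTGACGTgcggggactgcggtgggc
Alpl: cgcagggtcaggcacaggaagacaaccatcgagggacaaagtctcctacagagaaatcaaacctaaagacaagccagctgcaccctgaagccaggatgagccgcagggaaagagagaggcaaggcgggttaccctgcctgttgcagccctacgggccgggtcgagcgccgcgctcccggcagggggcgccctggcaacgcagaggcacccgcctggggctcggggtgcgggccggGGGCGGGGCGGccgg
Enpp1: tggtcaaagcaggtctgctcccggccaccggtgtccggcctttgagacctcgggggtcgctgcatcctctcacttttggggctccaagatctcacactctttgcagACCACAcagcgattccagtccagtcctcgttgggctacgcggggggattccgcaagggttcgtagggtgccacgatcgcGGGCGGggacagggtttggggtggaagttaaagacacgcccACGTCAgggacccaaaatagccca
Spp1: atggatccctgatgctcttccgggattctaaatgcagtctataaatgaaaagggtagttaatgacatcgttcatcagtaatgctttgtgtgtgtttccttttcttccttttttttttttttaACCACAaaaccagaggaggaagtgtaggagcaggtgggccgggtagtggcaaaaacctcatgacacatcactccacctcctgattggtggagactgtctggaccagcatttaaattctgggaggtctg
The window of Phospho1 held TGACGT beginning 24 bases before the start site and 3 GC boxes, of which 2 overlap. That of Enpp1 held the reverse complement of TGACGT, also beginning 24 bases before its start, along with 1 RUNX core and 1 GC box. The window of Alpl held 2 overlapping GC boxes and neither of the other motifs, and the window of Spp1 held 1 RUNX core. Among 32851 promoter windows of the same length, 14.0% held the RUNX core, 6.47% held TGACGT and 32.7% held a GC box. A match describes the letters and does not show that a factor binds there. The sequence table matched 6 of the 9 genes, and Smpd3, Slc20a2 and Mgp were the 3 it did not match.

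Among the 5 genes that favour mineral, Phospho1 and Slc20a2 fell in cKO, and among the 4 that restrain it Enpp1 rose. The test was edgeR's quasi-likelihood test over all 12830 genes, with a gene called at a Benjamini-Hochberg adjusted p below 0.05. It called 4.84% of all genes, made up of 2.74% called lower and 2.1% called higher in cKO, as a background to the 2 lower and 1 higher of the 9. The median log2 fold change was -0.56 over the 5 favouring genes and 0.25 over the 4 restraining genes, beside 0.000579 over all genes tested. The authors' deposited table gave 6 of the 9 an adjusted p below 0.05, where it gave one to 6.61% of all genes. The additional genes in that table were Alpl, Smpd3 and Mgp. The libraries of the 2 groups did not overlap for 7 of the 9 genes, against 22.5% of all genes.

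**Figure D1:**
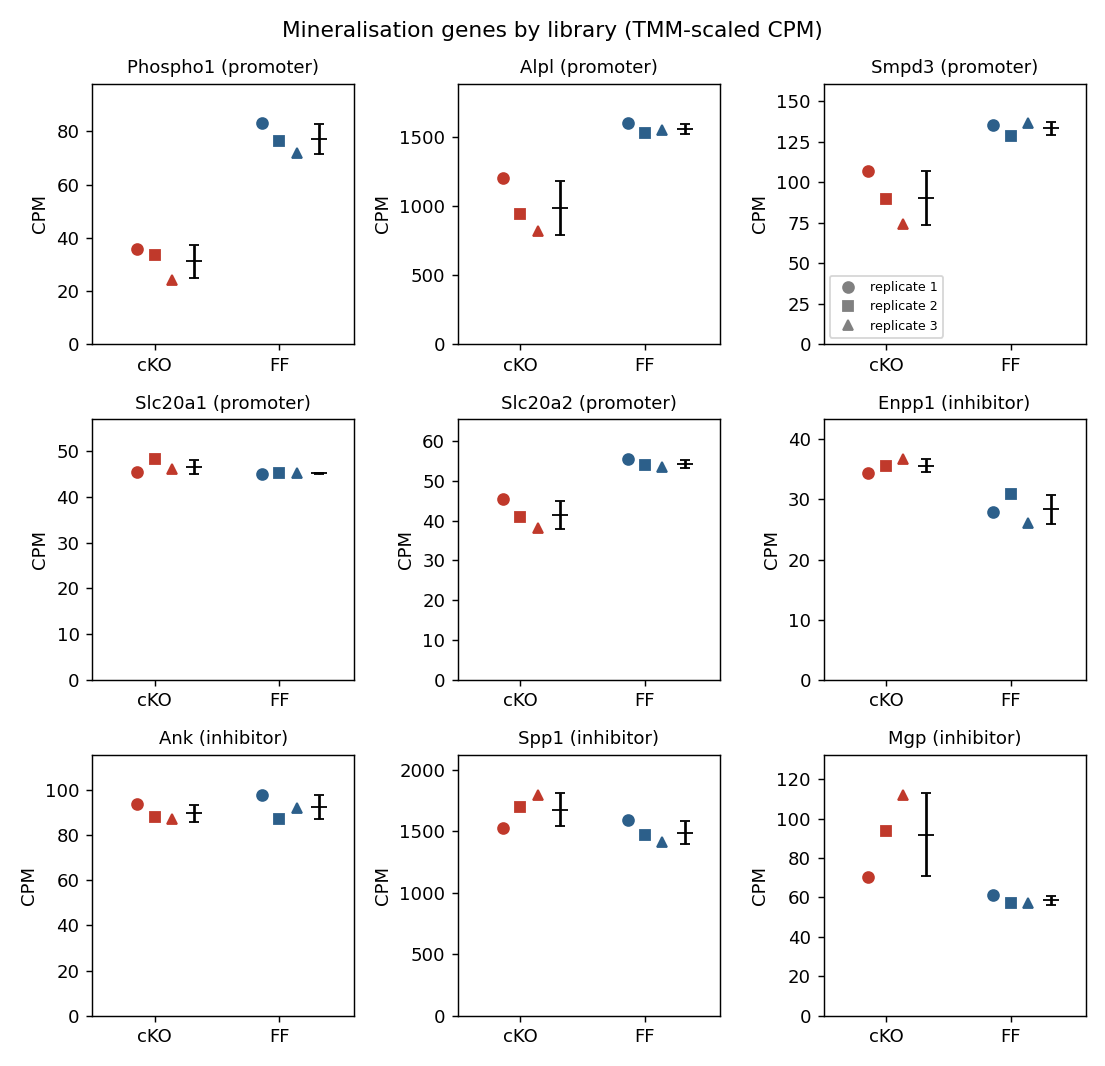
CPM of each gene in the 3 cKO libraries (red, left) and the 3 FF libraries (blue, right), with marker shape giving the replicate number and black bars the mean ± SD. Phospho1 sits at 24.2 to 35.7 CPM in cKO, below the lowest FF library at 71.7 CPM, while the points of Ank and Spp1 overlap between groups.

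Phospho1 encodes the phosphatase that releases phosphate from phosphocholine inside matrix vesicles. It had 1253, 1158 and 879 counts in cKO replicates 1, 2 and 3, against 2869, 2889 and 2302 counts in FF replicates 1, 2 and 3. In CPM this was 35.7, 33.4 and 24.2 in cKO and 83.0, 76.3 and 71.7 in FF. Every cKO library lay below every FF library, and cKO replicate 3 was the lowest of the 6. Phospho1 was 2.48-fold lower in cKO (log2 fold change -1.31, SE 0.16, edgeR adjusted p = 0.0144). The adjusted p was 0.0720 without cKO replicate 2 and 0.0768 without FF replicate 2, with log2 fold changes of -1.36 and -1.31. The gene, ENSMUSG00000050860, lies at chr11:95824499-95832140 on the plus strand. GENCODE M21 places part of Zfp652 on the same strand and part of Abi3 on the opposite strand within it, and no source used here says how reads in the shared bases were counted. This also applies to Smpd3 with Prmt7, Slc20a2 with Smim19 and Ank with Otulin, each on the opposite strand. On the same strand, genes without a row of counts overlap Smpd3 (Gm26786), Slc20a2 (Gm17491), Ank (Tiaf2, B230362B09Rik and Mir7117) and Spp1 (Gm42793).

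Slc20a2 (ENSMUSG00000037656, chr8:22476788-22569612, plus strand) encodes the phosphate importer PiT-2. It had 45.3, 40.8 and 38.1 CPM in cKO, against 55.4, 53.9 and 53.4 CPM in FF, so each cKO library lay under all FF libraries. It was 1.31-fold lower in cKO (log2 fold change -0.39, SE 0.0675, edgeR adjusted p = 0.00348). This call was kept with any 1 library left out, the highest adjusted p being 0.0259.

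Slc20a1 (ENSMUSG00000027397, chr2:129198764-129211616, plus strand) encodes PiT-1, the other sodium-dependent phosphate importer of the family. It had 45.5, 48.3 and 46.1 CPM in cKO and 45.2, 45.2 and 45.3 CPM in FF. The groups did not overlap, by a narrow margin, and the FF libraries lay close together (SD 0.0730 CPM, n = 3). Its log2 fold change was 0.044, with a 95% interval of -0.079 to 0.17 (edgeR adjusted p = 0.766). That interval does not reach the change of Slc20a2, whose own interval ran from -0.53 to -0.25.

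Alpl (ENSMUSG00000028766, chr4:137741733-137796384, minus strand) encodes the alkaline phosphatase that removes pyrophosphate at the vesicle and cell surface. It had 1202, 943 and 821 CPM in cKO, against 1601, 1531 and 1550 CPM in FF. No cKO library reached an FF library, and the cKO libraries spread widely while the FF libraries lay close together. The SD of log2 CPM was 0.28 in cKO and 0.033 in FF, where the medians over all genes were 0.088 and 0.073. Alpl missed the threshold at a log2 fold change of -0.66, with a 95% interval of -1.06 to -0.26 (edgeR adjusted p = 0.117). The authors' deposited table gave Alpl an adjusted p of 0.00217. Without cKO replicate 1 or cKO replicate 3 edgeR called it, with log2 fold changes of -0.82 and -0.54 (adjusted p = 4.95e-07 and 0.0279).

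Smpd3 (ENSMUSG00000031906, chr8:106252548-106337988, minus strand) encodes neutral sphingomyelinase 2, which frees phosphocholine, the substrate of Phospho1, from sphingomyelin. It had 107, 89.5 and 74.1 CPM in cKO and 135, 129 and 136 CPM in FF. Its libraries were ordered like those of Alpl, with cKO replicate 1 nearest to FF and cKO replicate 3 farthest. Smpd3 also missed the threshold, at a log2 fold change of -0.56 with a 95% interval of -0.94 to -0.19 (edgeR adjusted p = 0.14). It passed without cKO replicate 1 and without cKO replicate 3 (adjusted p = 0.000750 and 0.00456).

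**Figure D2:**
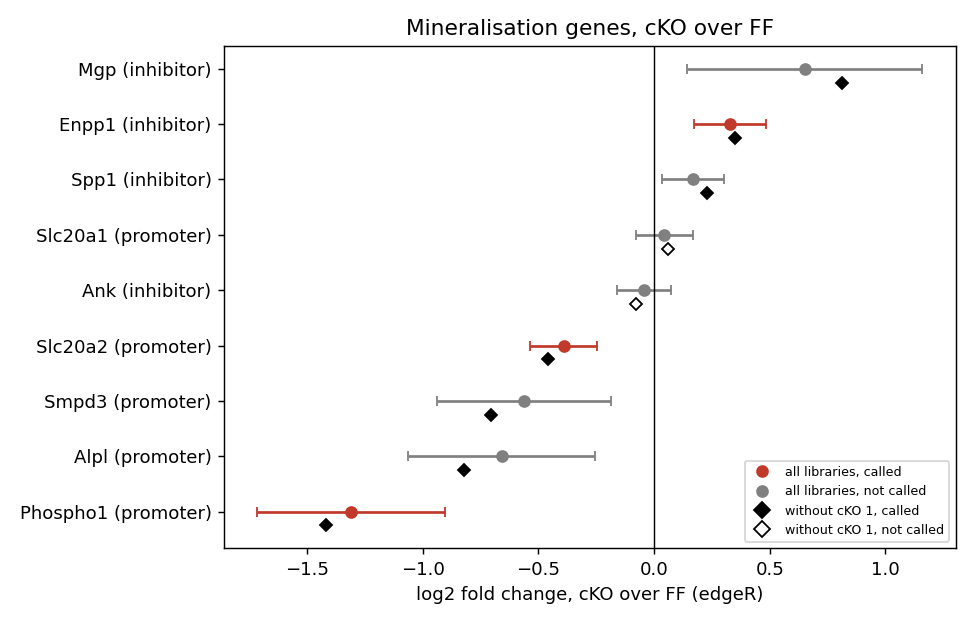
The log2 fold change of cKO over FF for each gene (circles, horizontal bars are 95% intervals from the edgeR fit) and the same value without cKO replicate 1 (diamonds), with filled red circles and filled diamonds for calls. Phospho1 (-1.31), Slc20a2 (-0.39) and Enpp1 (0.33) were called with all libraries, where 4.84% of all genes were called. Without cKO replicate 1, 7 of the 9 genes were called, where 9.09% of all genes were. With any 1 library left out, the lower calls among the 9 ranged from 1 to 4 and the higher calls from 0 to 3.

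Enpp1 (ENSMUSG00000037370, chr10:24637914-24712159, minus strand) encodes the ectoenzyme that splits ATP into AMP and pyrophosphate. It had 34.5, 35.6 and 36.7 CPM in cKO, against 27.9, 31.0 and 26.1 CPM in FF. All cKO libraries lay above all FF libraries, FF replicate 2 being the closest. Enpp1 was 1.26-fold higher in cKO (log2 fold change 0.33, SE 0.0724, edgeR adjusted p = 0.0172). The call was lost without cKO replicate 2, cKO replicate 3, FF replicate 1 or FF replicate 3 (adjusted p = 0.0705, 0.0776, 0.0709 and 0.0925), at log2 fold changes of 0.33, 0.31, 0.32 and 0.27. The deposited FPKM values, which scale by gene length and library size, did not separate the groups: they were 5.31, 6.98 and 7.40 in cKO and 5.89, 4.58 and 4.58 in FF. Counts and FPKM of Enpp1 were not in a fixed proportion between libraries. Counts per FPKM, relative to the listed total, varied 1.46-fold among the 6 libraries for Enpp1 and 1.16-fold for Phospho1, but at most 1.03-fold for each of the other 7 genes.

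Ank (ENSMUSG00000022265, chr15:27466677-27594909, plus strand), a membrane protein needed for extracellular pyrophosphate, had 93.7, 88.0 and 87.1 CPM in cKO and 97.8, 87.1 and 92.1 CPM in FF. The groups overlapped throughout. Ank had a log2 fold change of -0.043, with a 95% interval of -0.16 to 0.072 (edgeR adjusted p = 0.753).

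Spp1 (ENSMUSG00000029304, chr5:104435118-104441050, plus strand) encodes osteopontin, an acidic phosphoprotein of bone matrix that macrophages and osteoclasts also make. It had 1531, 1698 and 1797 CPM in cKO and 1589, 1472 and 1411 CPM in FF. Replicate 1 of cKO lay below replicate 1 of FF, so the groups overlapped. For Spp1 the log2 fold change was 0.17, with a 95% interval of 0.033 to 0.30 (edgeR adjusted p = 0.171), and it passed only when cKO replicate 1 was the library left out (0.23, adjusted p = 0.0118). Among the macrophage markers edgeR called 2 of 8 higher, Tyrobp by 0.26 and Mrc1 by 0.18 on the log2 scale, against 2.1% of all genes. All 8 had log2 fold changes above 0 (DESeq2 called 3, and 4 had an unadjusted edgeR p below 0.05). Among 8 osteoclast markers edgeR called 1 higher, the proton pump subunit Atp6v0d2, by 0.48. All 8 of these were also above 0 (DESeq2 called 1, and 1 had an unadjusted edgeR p below 0.05). The osteoclast list summed to 1408 to 1795 CPM in cKO and 1178 to 1602 CPM in FF. The part of these cells in the Spp1 values was not tested.

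Mgp (ENSMUSG00000030218, chr6:136872435-136875823, minus strand), a vitamin K-dependent inhibitor of calcification, had 70.3, 93.5 and 112 CPM in cKO, against 61.2, 57.3 and 57.1 CPM in FF. All cKO libraries lay above all FF libraries, and cKO replicate 3 had the highest value. At a log2 fold change of 0.65, with a 95% interval of 0.14 to 1.16, Mgp missed the threshold (edgeR adjusted p = 0.19). The authors' deposited table gave Mgp an adjusted p of 0.0141, and edgeR called it only without cKO replicate 1 among the libraries left out (0.81, adjusted p = 2.20e-05). Cartilage and vascular smooth muscle also express Mgp. Of 6 smooth muscle and pericyte markers edgeR called 0 (DESeq2 1, and 1 at an unadjusted p below 0.05), with sums of 2428 to 2805 CPM in cKO and 2393 to 2660 CPM in FF. Of 6 chondrocyte markers 3 were measured and edgeR called 0 (DESeq2 1, and 0 at an unadjusted p below 0.05), with sums of 259.9 to 289 CPM in cKO and 289 to 362 CPM in FF.

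Per gene length, in the deposited FPKM values, Spp1 was the most abundant of the 9, with a mean of 1059 in cKO and 952 in FF. Alpl followed with 356 in cKO and 567 in FF, then Mgp with 135 in cKO and 86.8 in FF. Enpp1 had the lowest mean in both groups, at 6.56 FPKM in cKO and 5.02 FPKM in FF. In cKO, Phospho1 averaged 21.6 ± 5.16 FPKM and Ank 23.3 ± 1.07 FPKM (SD, n = 3 each), and the libraries of these neighbours overlapped. In FF, Phospho1 stood above Ank, at 52.6 ± 2.45 FPKM against 24.2 ± 0.997 FPKM (SD, n = 3 each), with no overlap. The other neighbours whose libraries overlapped were Phospho1 with Smpd3 and Smpd3 with Slc20a1 in cKO, and Ank with Smpd3 in FF.

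Transcripts for the removal and the supply of pyrophosphate were set against each other within each library, as the ratio of Alpl to Enpp1 or to Ank, which no scaling between libraries changes. There were 34.9, 26.5 and 22.4 Alpl counts per Enpp1 count in cKO replicates 1, 2 and 3, against 57.3, 49.4 and 59.4 in FF replicates 1, 2 and 3. All cKO ratios lay below all FF ratios. Alpl was lower and Enpp1 higher in every cKO library than in any FF library, so this separation follows from the single genes. On the log2 scale the mean was 4.78 ± 0.32 in cKO and 5.79 ± 0.14 in FF (SD, n = 3 each), a difference of -1.01. Enpp1 counts and FPKM were not in a fixed proportion, so the ratio depends on which of them is used. In FPKM the Alpl to Enpp1 ratio was 82.0, 48.8 and 39.6 in cKO and 96.6, 123 and 124 in FF. The FPKM ratios did not overlap either, with a log2 difference of -1.07 and a wider spread in cKO (SD 0.54, against 0.20 in FF). In counts the ratio of Alpl to Ank was 12.8, 10.7 and 9.43 in cKO and 16.4, 17.6 and 16.8 in FF, a log2 difference of -0.63. Those ratios also did not overlap between the groups, and they largely restate Alpl, as Ank had a log2 fold change of -0.043. All the ratios are given without a test, because the genes were chosen with results known.

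**Figure D3:**
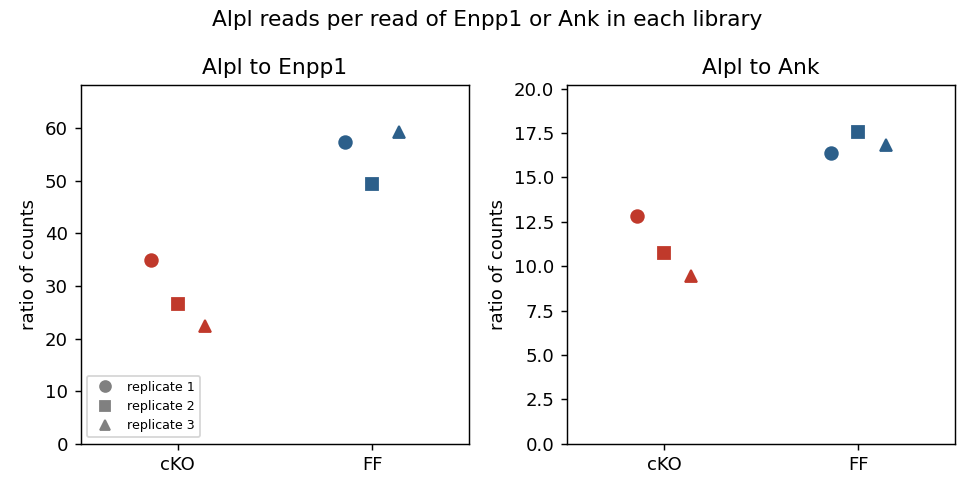
Counts of Alpl per count of Enpp1 (left panel) and of Ank (right panel) in each library, cKO in red and FF in blue, marker shape giving the replicate number. The Alpl to Enpp1 ratio was 22.4 to 34.9 in cKO and 49.4 to 59.4 in FF, a separation that follows from Alpl and Enpp1 taken singly.

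The cKO libraries were not alike in these genes. Replicate 1 of cKO was the nearest to the FF mean, along the direction of the group difference, for 9 of 9 genes, and replicate 3 was the farthest for 8 of 9. Over all genes tested, cKO replicate 1 was the nearest for 44.7% and replicate 3 the farthest for 38%. Among the 621 called genes these shares were 56.2% and 53.5%. For Mgp, for example, log2 CPM exceeded the FF mean by 0.26, 0.67 and 0.93 in cKO replicates 1, 2 and 3. Rras2 itself did not follow this order, being 26.7, 29.0 and 26.8 CPM in the same libraries. Summed over 8 osteoblast markers the cKO libraries had 12467, 11682 and 10244 CPM, and the FF libraries 17045, 16231 and 15858 CPM. Most of each sum came from Col1a1 and Col1a2. In cKO these had 5997, 5477 and 4808 CPM and 5278, 5063 and 4504 CPM. Runx2, Col1a1 and Col1a2 of that list fell. Without cKO replicate 1, 4 of the 9 genes were called lower (Phospho1, Alpl, Smpd3 and Slc20a2) and 3 higher (Enpp1, Spp1 and Mgp), where 9.09% of all genes were called.

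**Figure D4:**
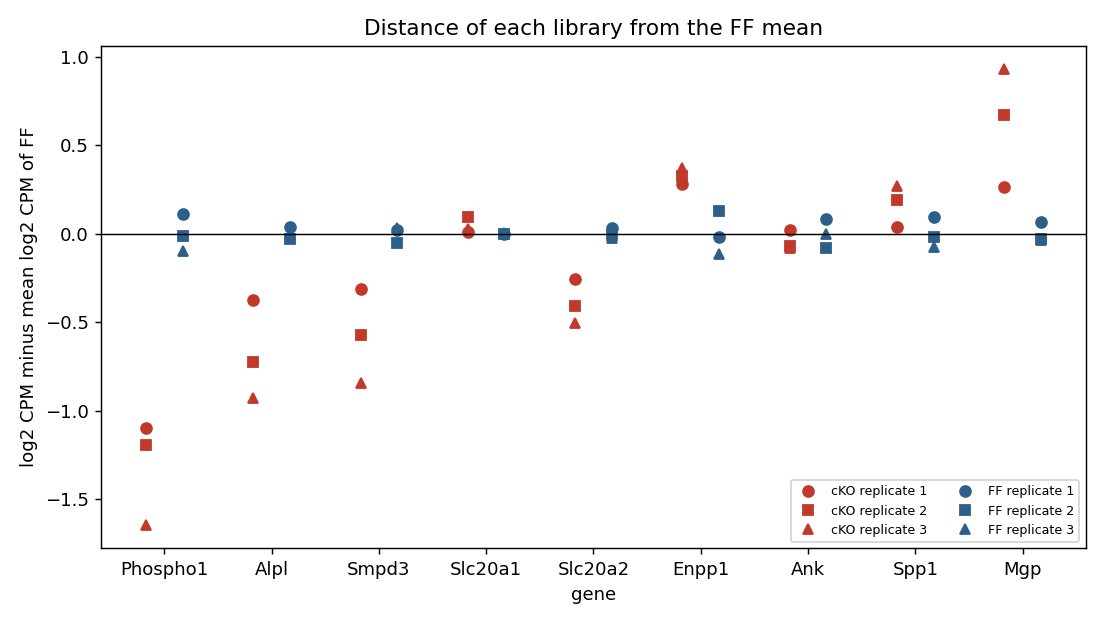
The log2 CPM of each library minus the mean log2 CPM of the FF libraries, for each gene, with cKO in red left of FF in blue and marker shape giving the replicate number. For Phospho1, Alpl, Smpd3, Slc20a2, Enpp1, Spp1 and Mgp, cKO replicate 1 is the cKO point nearest to 0 and cKO replicate 3 the farthest.

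By the root mean square distance between log2 CPM profiles over the 6 libraries, each centred on its own mean, the 5 genes most like Phospho1 were Adam12, Cthrc1, Slc36a2, Syt6 and Creb3l1. Their distances were 0.093 to 0.15, where the median over 10775 genes of at least 5 CPM was 0.69. Adam12, a membrane metalloprotease and the nearest, had 23.1, 18.9 and 15.3 CPM in cKO and 46.6, 43.2 and 39.3 CPM in FF. The 5 genes most like Alpl were Tmie, Pth1r, Sp7, Rgs3 and Olfml2b, at distances of 0.032 to 0.056, where the median was 0.38. Pth1r is the parathyroid hormone receptor and Sp7 the osteoblast transcription factor osterix. Pth1r had 227, 192 and 153 CPM in cKO and 309, 298 and 291 CPM in FF. Smpd3 ranked 7 in likeness to Alpl, at 0.06. Phospho1 and Alpl were 0.34 apart, which ranked Alpl 52 in likeness to Phospho1 and Phospho1 2344 in likeness to Alpl. These distances describe 6 libraries, and a difference between the groups enters every one of them.

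Of 65 other genes of mineral and phosphate handling, in 8 lists, 55 were measured. Of these 4 fell and 3 rose, where 2.74% of all genes were called lower and 2.1% higher. The mineral-binding matrix proteins had negative log2 fold changes for all 6 measured members, with a median of -0.54, and 1 of them passed. The number passing was 3 without cKO replicate 1, 4 without cKO replicate 3 and 4 with DESeq2. Over all genes these fits called 1166, 341 and 848. The number stayed at 1 without cKO replicate 2 and without any 1 FF library. Sparc, or osteonectin, fell to 2725 ± 120 CPM in cKO, against 3451 ± 63.6 CPM in FF (SD, n = 3 each), which is -0.34 on the log2 scale (edgeR adjusted p = 0.00107). Ibsp, the bone sialoprotein that nucleates mineral, had 751, 765 and 596 CPM in cKO and 958, 999.6 and 887 CPM in FF. Its groups did not overlap, and its edgeR adjusted p was 0.0886. The near-identical genes Bglap and Bglap2, whose reads may be shared, had log2 fold changes of -1.87 and -1.34 and adjusted p-values of 0.116 and 0.347 in edgeR. Without cKO replicate 1 these were -2.50 and -2.15, with edgeR adjusted p-values of 0.000188 and 2.83e-05, and DESeq2 on all libraries gave adjusted p-values of 0.0178 for Bglap and 0.213 for Bglap2.

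The phosphate hormone list had 2 falls and 1 rise among 7 measured genes, with a median log2 fold change of -0.26. The falls numbered 4 without cKO replicate 1 and 0 without FF replicate 2 or FF replicate 3, where 1166, 268 and 379 genes were called in all. Galnt3, which glycosylates the phosphate hormone FGF23, fell by 0.51, and Fgfr1, a receptor for it, fell by 0.26 (edgeR adjusted p = 0.0269 and 0.0342). Galnt3 lost its call without cKO replicate 3, FF replicate 2 or FF replicate 3 (adjusted p = 0.103, 0.154 and 0.0701), and Fgfr1 kept its call only without cKO replicate 1 among the libraries left out, with adjusted p-values up to 0.157. Fam20c, the kinase that phosphorylates secreted mineral-binding proteins such as osteopontin, averaged 66.4 ± 1.84 CPM in cKO and 55.5 ± 4.48 CPM in FF (SD, n = 3 each), higher by 0.26 (edgeR adjusted p = 0.0321). Its call was lost without cKO replicate 2 or 3 or FF replicate 1 or 2 (adjusted p = 0.128, 0.0558, 0.129 and 0.0757).

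Among 11 measured pyrophosphate and extracellular nucleotide genes 1 rose. It was Entpd1, or CD39, which degrades extracellular ATP and which leukocytes also carry, with 123, 124 and 117 CPM in cKO, against 95.8, 104 and 109 CPM in FF (log2 fold change 0.23, edgeR adjusted p = 0.0201). That call was lost without cKO replicate 2, FF replicate 1 or FF replicate 2 (adjusted p = 0.0968, 0.0901 and 0.0908), and without cKO replicate 1 the list had 2 rises. Of 11 phosphocholine and sphingomyelin genes 1 rose, Gdpd1, a lysophospholipase D, by 0.34 (edgeR adjusted p = 0.0198). It lost its call without the same 3 libraries (adjusted p = 0.0898, 0.0835 and 0.0954). Of 9 genes for zinc loading and the GPI anchor of alkaline phosphatase 1 fell, the GPI transamidase subunit Gpaa1, by 0.23. Its adjusted p of 0.0476 was above 0.05 in 5 of the 6 fits that left out a library, at up to 0.214.

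With edgeR the phosphate carriers had 0 calls of 2 measured, the annexins 0 of 5 and the genes of Gla protein carboxylation 0 of 4. DESeq2 called 0 in each of these lists, and an unadjusted edgeR p below 0.05 was found for 2 annexins, Anxa2 and Anxa5, and for 0 genes of the other two lists. Slc25a3, the mitochondrial phosphate carrier, and Xpr1, the phosphate exporter, had log2 fold changes of 0.075 and 0.081. Anxa5 and Anxa2, calcium-binding proteins of matrix vesicles, had 0.10 and -0.11. Gas6, a vitamin K-dependent ligand, and Vkorc1l1, which recycles vitamin K, had 0.011 and -0.081.

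**Figure D5:**
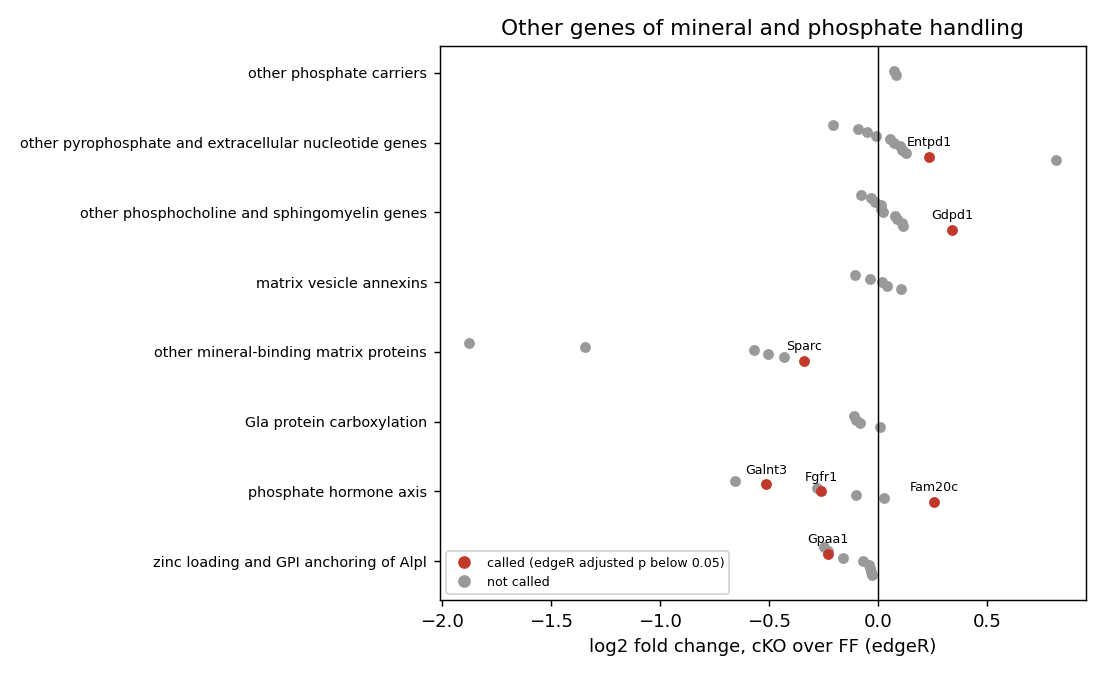
The log2 fold change of cKO over FF for the 55 other measured genes of mineral and phosphate handling, 1 point per gene and 1 row per list, with called genes in red and named. The 4 called genes left of 0 are Sparc, Galnt3, Fgfr1 and Gpaa1, and the 3 right of 0 are Entpd1, Gdpd1 and Fam20c.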

How the data were processed

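The 6 libraries, 3 cKO and 3 FF, were made with a stranded mRNA kit, per the labels' protocols. The submitters' processing notes name mm10. Which aligner, counter and strand setting were used is not stated there. Deposited by the authors was a table that holds raw gene counts and, per the file headers, FPKM values per library. It also holds the authors' log2 fold change, p-value and adjusted p-value per gene. The lowest mean count of any listed gene was 22.3, so weaker genes are not analysed here.

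The main test on the counts was that of edgeR 4.0.16, run in R 4.3.3 (TMM scaling, filterByExpr, robust quasi-likelihood F test, no covariates), with p-values adjusted over all 12830 genes. The filter removed 0 genes. On counts simulated with the dispersions of these genes, edgeR and DESeq2 both had a share of false calls above the nominal level. Each edgeR SE is the size of the log2 fold change divided by the square root of the F statistic. Intervals of 95% use that SE and the t distribution. Alternatives used DESeq2 1.42.0, limma 3.58.1, other scaling, filters, a replicate block and each library left out. FPKM was tested in limma as log2(FPKM + 1). Coordinates are from GENCODE M21 on the same build. Replicates within each group differed by more than counting noise.

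Named were the 9 genes, each list's called genes or, with none called, its 2 most abundant, and the 5 genes most like Phospho1 and like Alpl (predicted gene models and immunoglobulin genes left out). Other list genes (Ibsp, Bglap, Bglap2) and the markers were named after their values were seen. Some results on single marker genes are not reported here. The 9 genes and all lists were chosen with earlier results of these data known.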

Additional observations from a re-analysis of the deposited data

How the results depend on the processing

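No alternative turned the direction of any of the 9 genes. With any 1 library left out, the calls over all genes ranged from 268 to 1166, the lower calls among the 9 genes from 1 to 4 and the higher calls from 0 to 3. In those fits the log2 fold change ranged from -1.42 to -1.16 for Phospho1, -0.82 to -0.54 for Alpl, -0.71 to -0.44 for Smpd3, 0.27 to 0.40 for Enpp1, 0.11 to 0.23 for Spp1 and 0.48 to 0.81 for Mgp. DESeq2 called 848 genes in all, and 4 of the 9 lower and 2 higher, adding Alpl (-0.66), Smpd3 (-0.56) and Mgp (0.65). Its log2 fold changes for the 9 genes differed from the authors' deposited values by at most 7.23e-08. The DESeq2 calls and those of the authors' table are therefore not separate evidence. Limma-voom called 434 genes in all and 4 of the 9 lower, adding Alpl (-0.68) and Smpd3 (-0.58). Without robust estimation edgeR called 399 genes in all and 4 of the 9 lower, adding Alpl (-0.66) and Smpd3 (-0.56). In that fit 1 of the 9 was called higher, with Mgp (0.65) added and Enpp1 lost (0.33, adjusted p = 0.0522). The deposited FPKM in limma, an alternative chosen after the data were examined, called 291 genes in all, added Alpl (-0.69) to make 3 lower calls among the 9 and lost Enpp1 (0.33, adjusted p = 0.29), leaving 0 higher calls among the 9, where edgeR had 1 and DESeq2 2. The cause of these changes was not tested. RLE, upper-quartile and library-total scaling, no filter and a mean count of at least 100 changed no call among the 9.

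With the replicate number as a block 669 genes were called, and the calls among the 9 stayed at 2 lower and 1 higher. Among the other named genes Gpaa1 lost its call (adjusted p = 0.064), and the lower calls among the mineral-binding matrix proteins were 2, against 1 without the block. Deviations from the group means correlated at -0.036, 0.091 and -0.099 across genes for same-numbered libraries. For differently numbered libraries the correlations ran from -0.19 to 0.21. Deviations within a group depend on each other, so these values cannot decide whether the numbers pair the libraries.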
